A study of Saccharomyces cerevisiae with 8 samples.

Results

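Messenger RNA of budding yeast grown on glycerol was compared between the 2 arrays labelled A880STM1K and the 2 arrays labelled BY4741, which are 4 of the 8 Affymetrix Yeast Genome 2.0 arrays of the study. The arrays were chosen by their labels alone. BY4741 is labelled as the wild type. A880 is labelled as BY4741 with a pop2 deletion, and A880STM1K as A880 transformed with a copy of STM1 whose arginine at position 237 is replaced by lysine, written R237K. A880STM1, labelled as A880 transformed with STM1 that is not altered, serves below only to test where the change from BY4741 differs. By the labels all 4 strains grew in synthetic complete medium with 2% glucose to an optical density of 1, were washed, and were kept for a further 12 hours in the same medium with 2% glycerol until the density was 0.4 to 0.8. The 2 arrays of a strain came from separate experiments and cultures, and each used 10 µg of total RNA from whole cells. The question that the labels put to this comparison is how far the R237K strain lies from wild type. The labels do not say on which plasmid or promoter STM1 was carried, and they name no further allele.

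CCR4-NOT removes the poly(A) tails of messenger RNAs and so starts the decay of many of them, and Pop2 is one of its nucleases. Stm1 is an abundant protein that binds ribosomes and protects idle ones. Glycerol can only be respired, so yeast on glycerol normally runs the genes that glucose represses, which include those for building sugar from small carbon compounds, for the glyoxylate cycle and for oxidising fatty acids and acetate. Of 5498 probe sets that stand for a single S. cerevisiae gene, 5496 for 5448 genes lay above background on at least 2 arrays and were tested. Values are deposited signals for each array, replicate 1 first, and changes are the log2 difference ± standard error of a limma fit over all 8 arrays. A probe set with a Benjamini-Hochberg adjusted p below 0.05 over all 5496 is called changed, and "rose" or "fell" is written only of those. With 2 arrays per group the number of arrays limits the precision, and a bulk signal cannot tell fewer cells of a kind from less RNA per cell.

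The genes named in the labels were read first. POP2 gave 883 and 814 on the BY4741 arrays and 255 and 176 on those labelled A880STM1K, where the label calls for none. It was below background on both A880 arrays, at 0.221 and 0.452. POP2 was therefore lower on the arrays labelled A880STM1K by log2 -2.0 ± 0.45 (adjusted p = 0.00422) but still detected on both arrays, which goes against the label, so the samples are called the arrays labelled A880STM1K throughout. The arrays labelled A880STM1, also a pop2 deletion by label, gave 181 and 286 for POP2 and go against their label in the same way. STM1 gave 2043 and 2566 on the BY4741 arrays and 8697 and 8143 on the arrays labelled A880STM1K, a rise of log2 1.88 ± 0.28 (adjusted p = 0.000439). The 2 groups were far apart for STM1, and the difference from the arrays labelled A880STM1 (9441 and 5027) was log2 0.29 ± 0.28 and was not called (adjusted p = 0.454). The array measures the STM1 transcript and does not show whether it carries R237K.

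Selectable marker genes and several other loci also differed between the labels. URA3, a uracil synthesis gene, gave 3.32 and 1.14 on the BY4741 arrays, not above background, and 1850.2 and 1384 on the arrays labelled A880STM1K, at least 247-fold higher. CAN1, the arginine permease, gave 0.318 and 0.551 against 675 and 584 and was at least 96.9-fold higher (largest adjusted p = 2.85e-07). These were the only 2 probe sets that lay above 5 times background on both arrays labelled A880STM1K and not above background on either BY4741 array. LEU2, a leucine synthesis gene, rose from 529.8 and 542 to 9187 and 7640.4, by log2 3.97 ± 0.33. MET17, which makes homocysteine from sulfide, gave 713 and 2179.7 and then 4608 and 7264, a rise of log2 2.21 ± 0.45 in which the BY4741 arrays themselves differed widely. ADE2, an adenine synthesis gene, rose by log2 1.74 ± 0.25 (largest adjusted p = 0.00251), while the changes of HIS3 (log2 0.53 ± 0.24) and LYS2 (log2 0.78 ± 0.32) were not called (largest adjusted p = 0.0947). Of the marker genes 5 of 7 measured members rose and 0 fell [5 to 6 and 0]. LEU2 and MET17 were thus detected on the BY4741 arrays, although the common laboratory strain of that name lacks both genes. URA3 and CAN1 were high on the A880 arrays too, at 5062 and 5537 and at 920 and 775, and on the A880STM1 arrays. Only the BY4741 arrays lacked their signal. The genotype behind the BY4741 label is therefore uncertain as well, and its part in these differences was not tested.

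In the other direction 3 probe sets lay above 5 times background on both BY4741 arrays and not above background on either array labelled A880STM1K. ASP3-1, a cell-wall asparaginase, gave 3856 and 3544 on the BY4741 arrays and 0.63 and 5.81 on the arrays labelled A880STM1K, at least 461-fold lower. It was high on every other array of the study, with 3512 and 3788 on A880 and 4578 and 2942 on A880STM1. YLR156W, an uncharacterised gene next to it on chromosome XII, fell from 1346 and 939.7 to 0.434 and 0.175, at least 140.3-fold. YLR157W-E, close to both, fell from 1625 and 1056 to 14.5 and 7.37, by log2 -6.99 ± 0.39, and was above background on 1 of the 2 arrays labelled A880STM1K, so that the size of its fall is uncertain. The probe sets of all 3 are shared with near-identical copies in the same stretch of chromosome XII, so which copy they read is uncertain. YBR013C, an uncharacterised gene on chromosome II, gave 900.4 and 997 against 0.444 and 3.46, at least 118-fold lower (largest adjusted p = 3.34e-05), and was also not above background on the A880 and A880STM1 arrays. Whether the genes with no signal are missing from the cells was not tested.

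**Figure D1:**
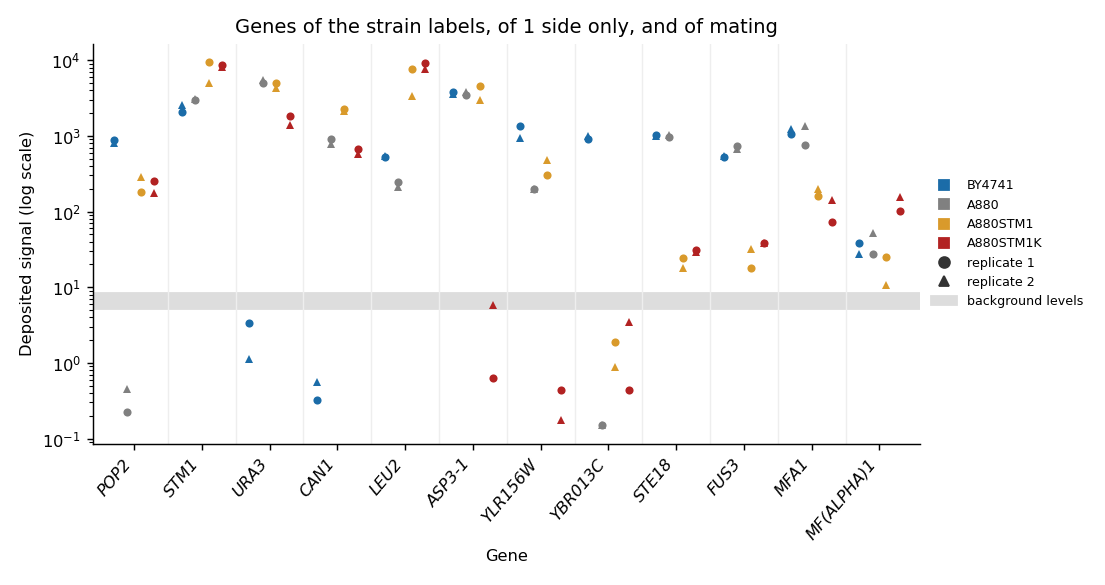
Deposited signal of 12 genes on each of the 8 arrays, on a log scale, with circles for replicate 1, triangles for replicate 2 and a grey band for the background levels of the arrays. POP2 lies between 176 and 255 on the arrays labelled A880STM1K and below background on the A880 arrays, while ASP3-1 and YLR156W fall below background on the arrays labelled A880STM1K only.

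The arrays labelled A880STM1K lay farther from BY4741 than the arrays of either other strain did. The median absolute log2 difference over the tested probe sets was 0.778 to 0.804 in the 4 array pairs, against 0.401 to 0.449 between BY4741 and A880 and 0.357 to 0.655 between BY4741 and A880STM1. These comparisons share the BY4741 arrays and are given side by side with no test of one against the other. Replicates differed by 0.144 in BY4741, by 0.118 in A880 and by 0.465 in A880STM1. They differed by 0.388 in the arrays labelled A880STM1K, where 12.0% of probe sets were more than 2-fold apart. The range between BY4741 and A880STM1 splits by array, with 0.639 and 0.655 for A880STM1 replicate 1 and 0.363 and 0.357 for replicate 2. The limma test called 2720 of 5496 probe sets, or 49.5%, with 1164 (21.2%) higher and 1556 (28.3%) lower on the arrays labelled A880STM1K. The groups did not overlap for any of the 2720, and they did not overlap for 76.0% of all tested probe sets. The change was 2-fold or more for 1989 of the calls, 844 of them higher and 1145 lower. Over all tested probe sets the median change was log2 -0.11.

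The split between higher and lower depends on how the arrays are scaled. With equal array medians it was 1488 higher and 1305 lower, so that 53.3% of the calls were higher in place of 42.8%, and the median over all tested probe sets went to log2 0.12. The number of calls was 1755 without BY4741 replicate 1 and 1676 without BY4741 replicate 2. It was 2664 and 2701 without replicate 1 and replicate 2 of the arrays labelled A880STM1K. Of the 2720 calls, 1504 held under both other scalings and without each of the 4 arrays in turn, 647 of them higher and 857 lower. The genes given with a change below are in this group unless the text says otherwise. Counts of a gene list are followed in square brackets by the range of the same counts when 1 of the 4 arrays is left out. The array left out is named where it moved a count by 3 or more and by over 1.5 times. The list median kept its sign under both other scalings and without each array for 29 of the 53 lists, and a median printed below is of such a list unless the text says that its sign changed.

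**Figure D2:**
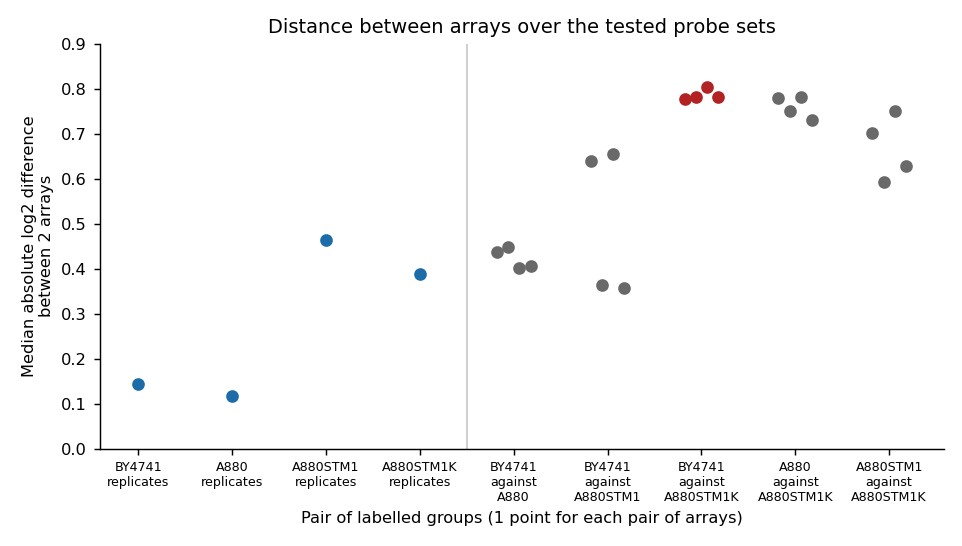
Median absolute log2 difference over the 5496 tested probe sets for each pair of arrays, with pairs of replicates at the left and pairs across labels at the right. The 4 pairs of BY4741 with an array labelled A880STM1K lie at 0.778 to 0.804, above every pair of BY4741 with A880 or A880STM1.

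Genes for making sugar from small carbon compounds were low on the arrays labelled A880STM1K. SFC1, which exchanges succinate for fumarate across the inner mitochondrial membrane, gave 5157 and 4766 on the BY4741 arrays and 79.3 and 46.2 on the arrays labelled A880STM1K. FBP1, fructose-1,6-bisphosphatase of gluconeogenesis, gave 3301 and 3491 against 71.8 and 122. The 2 groups were more than an order of magnitude apart for both genes, with falls of log2 -6.36 ± 0.31 and log2 -5.18 ± 0.34 (largest adjusted p = 5.09e-06). ICL1, isocitrate lyase of the glyoxylate cycle, fell from 6036 and 5159.7 to 333 and 216, and MLS1, malate synthase of the same cycle, fell from 4918 and 4854 to 807 and 553. Their changes were log2 -4.38 ± 0.34 and log2 -2.87 ± 0.23. CAT8 and SIP4, the zinc cluster activators of gluconeogenic genes, fell by 3.52 and 3.32 on the log2 scale (largest adjusted p = 2.71e-05). In this list 15 of 18 measured members fell and 0 rose [15 and 0], at a median of log2 -1.92, where 28.3% of all tested probe sets fell.

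The fall extended to the import of acetyl groups and to fatty acid oxidation, where 28.3% of all tested probe sets fell and 21.2% rose. All 5 carnitine shuttle genes, which carry acetyl groups into mitochondria, fell, at a median of log2 -3.0. CRC1, the carnitine carrier of the inner membrane, gave 4180.2 and 3634 on the BY4741 arrays and 402 and 279 on the arrays labelled A880STM1K. CAT2, YAT1 and YAT2, the carnitine acetyltransferases, fell by 2.11, 3.0 and 3.86 on the log2 scale, and CRC1 fell by 3.54 (largest adjusted p = 0.000139). AGP2, a plasma membrane protein needed for carnitine uptake, changed by log2 -0.83 ± 0.29 (adjusted p = 0.0358), a call lost under both other scalings and without BY4741 replicate 1 or A880STM1K replicate 2. Of the fatty acid oxidation and peroxisome genes 22 of 36 measured members fell and 1 rose [19 to 23 and 0 to 2], at a median of log2 -1.24. POT1, the thiolase that ends each round of beta-oxidation, gave 5003 and 5085 on the BY4741 arrays and 107 and 292 on the arrays labelled A880STM1K. POX1, the acyl-CoA oxidase that starts it, gave 3595 and 3619.6 against 166 and 261. Both lay far below BY4741 on either array, with changes of log2 -4.84 ± 0.37 and log2 -4.11 ± 0.29. CTA1, the peroxisomal catalase, fell by 3.63, ECI1, an enoyl-CoA isomerase, by 3.53, PEX18, an import factor of peroxisomes, by 3.58 and IDP3, a peroxisomal isocitrate dehydrogenase, by 2.73 on the log2 scale (largest adjusted p = 1.9e-05).

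Genes for glucose uptake and use moved the opposite way or were mixed, where 21.2% of all tested probe sets rose and 28.3% fell. Of the hexose transporters 6 of 14 measured members rose and 1 fell [3 without BY4741 replicate 2 to 7, and 1 to 2], at a median of log2 0.92. HXT3, a low-affinity glucose transporter, gave 1053 and 498 on the BY4741 arrays and 6323 and 6005 on the arrays labelled A880STM1K, a rise of log2 3.09 ± 0.42. HXT4 rose from 702 and 488 to 3704 and 4494, by log2 2.80 ± 0.33, and HXT2, a high-affinity transporter, rose by log2 1.51 ± 0.26. HXT5, the transporter of slow-growing cells, went against the others and fell from 5564 and 5592 to 1382 and 1535, by 1.94 on the log2 scale (largest adjusted p = 0.00089). Members of the transporter family are close in sequence, so their probe sets may read each other in part. Of the glycolytic enzymes 7 of 15 measured members rose and 0 fell [4 without BY4741 replicate 2 or A880STM1K replicate 1 to 7, and 0], at a median of log2 0.64, among them PFK1 and PFK2, the phosphofructokinase subunits, by log2 1.44 ± 0.24 and log2 1.76 ± 0.25, and PFK27, which makes the activator of that enzyme, by log2 2.22 ± 0.33 (largest adjusted p = 0.000798).

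Regulators of glucose repression did not move as a group. MIG2, a repressor that acts when glucose is present, gave 48.7 and 37.5 on the BY4741 arrays and rose to 1028 and 551 on the arrays labelled A880STM1K, by log2 4.14 ± 0.39. HXK2, the main hexokinase of growth on glucose, rose from 1469 and 1177 to 6219 and 5095, by log2 2.10 ± 0.36. MIG1, the related repressor, fell instead from 1449 and 1069.8 to 221 and 129, by 2.89, and SNF3, a sensor of low glucose, from 1836 and 1685 to 240.0 and 252, by 2.84 on the log2 scale. SIP2, a subunit of the Snf1 kinase, fell by 1.89, and EMI2, a gene close to glucokinase in sequence, rose by log2 1.98 ± 0.28 (largest adjusted p = 0.000928). In this list 6 of 23 measured members rose and 8 fell [3 without BY4741 replicate 1 to 7, and 5 without BY4741 replicate 1 or BY4741 replicate 2 to 8], and the median, log2 0.093, changed sign with some of the alternatives. Of all tested probe sets 21.2% rose and 28.3% fell, near the shares of this list.

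In fermentation and the pentose phosphate pathway, enzymes that do the same step moved in different directions. ADH2, the alcohol dehydrogenase that glucose represses, gave 6585 and 6685 on the BY4741 arrays and 262 and 1133 on the arrays labelled A880STM1K, a fall of 3.61 on the log2 scale. ACS2, the acetyl-CoA synthetase of glucose-grown cells, rose from 537 and 515 to 4992 and 4182, by log2 3.12 ± 0.26. ADH5 and ADH6, other alcohol dehydrogenases, rose by log2 1.66 ± 0.23 and log2 2.99 ± 0.33, PDC5, a pyruvate decarboxylase, by log2 2.22 ± 0.32, and ALD5, an aldehyde dehydrogenase, by log2 2.65 ± 0.45 (largest adjusted p = 0.000905). Of the fermentation list 6 of 17 measured members rose and 3 fell [6 and 3 to 4], where 21.2% of all tested probe sets rose and 28.3% fell. GND1, the major 6-phosphogluconate dehydrogenase, rose from 397 and 371 to 4285 and 4764, by log2 3.56 ± 0.24, while GND2, its minor form, gave 2004 and 2984 against 312 and 1145, a change of log2 -2.03 ± 0.52 that was not called without A880STM1K replicate 1. TKL1, the main transketolase, rose from 347 and 202 to 4301 and 1908, by log2 3.43 ± 0.43, and TKL2, its minor form, changed by log2 -1.05 ± 0.26, which was not called without BY4741 replicate 2. SOL3, a lactonase of the pathway, rose by log2 2.36 ± 0.28 (largest adjusted p = 0.0087), and in the pentose phosphate list 4 of 11 measured members rose and 4 fell [4 to 5, and 1 without BY4741 replicate 2 to 3].

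Of the genes that take up and use glycerol itself, 4 of 14 measured members rose and 3 fell [1 without BY4741 replicate 1 or BY4741 replicate 2 to 4, and 1 to 3]. These counts lie near the shares of all tested probe sets, 21.2% higher and 28.3% lower. GUT1, glycerol kinase, gave 4069.6 and 3808 on the BY4741 arrays and 773 and 1440.4 on the arrays labelled A880STM1K, a fall of 1.90 on the log2 scale. GUT2, the mitochondrial glycerol-3-phosphate dehydrogenase, gave 6550.2 and 6036 against 3202 and 4689, a change of log2 -0.70 ± 0.23 that was not called with equal array medians, without either BY4741 array or without A880STM1K replicate 1. GCY1, a glycerol dehydrogenase, rose by log2 1.21 ± 0.22 (largest adjusted p = 0.0248). The list median, log2 -0.15, lay near that of all tested probe sets and its sign changed with some of the alternatives.

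**Figure D3:**
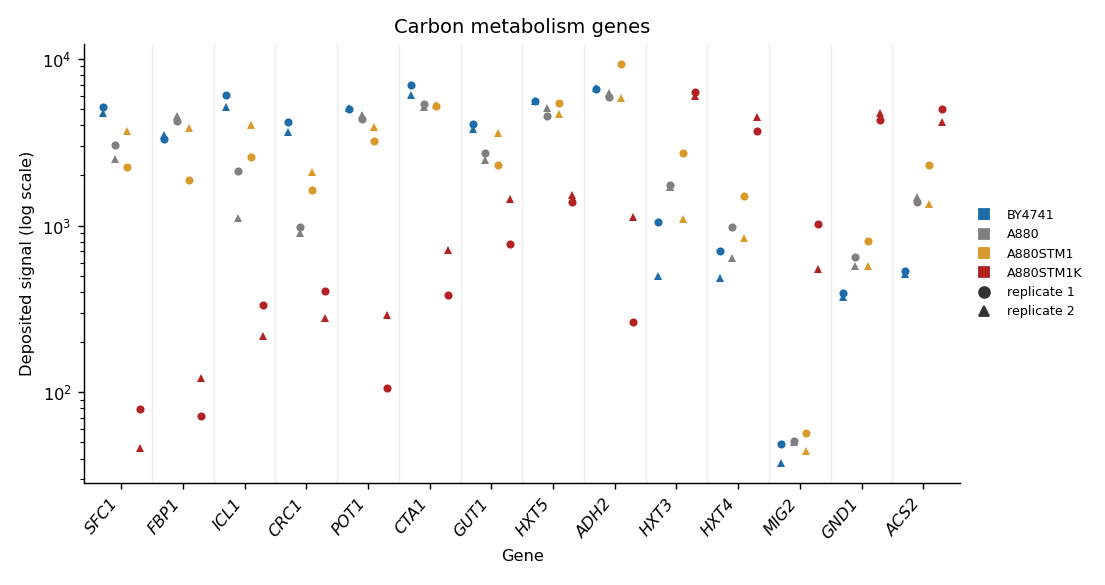
Deposited signal of 14 carbon metabolism genes on each of the 8 arrays, on a log scale, with circles for replicate 1 and triangles for replicate 2. From SFC1 to ADH2 the arrays labelled A880STM1K lie below both BY4741 arrays, and from HXT3 to ACS2 they lie above them.

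Respiratory genes were mixed. The counts of both lists below lay near the shares of all tested probe sets, of which 21.2% rose and 28.3% fell. In the tricarboxylic acid cycle list 5 of 20 measured members rose and 4 fell [3 to 7 and 2 to 4]. IDH1 and IDH2, the subunits of NAD-dependent isocitrate dehydrogenase, rose from 1959.9 and 1837 to 8638 and 7887 and from 1580.4 and 1129 to 7097 and 6406. Their rises were log2 2.12 ± 0.19 and log2 2.34 ± 0.23. HAP4, the activating subunit of the HAP complex that drives respiratory genes, rose by log2 1.75 ± 0.26, and HAP2, one of its DNA-binding subunits, fell by 1.19, while CIT3, a mitochondrial citrate synthase, fell by 2.29 on the log2 scale (largest adjusted p = 0.00178). CYC1, iso-1-cytochrome c, gave 302 and 241 on the BY4741 arrays and 5143 and 6265 on the arrays labelled A880STM1K, a rise of log2 4.40 ± 0.28, and was the fourth largest rise of all tested probe sets. NDE1, an NADH dehydrogenase of the inner membrane, rose by log2 2.53 ± 0.21, and CYT1, cytochrome c1, by log2 1.52 ± 0.21. ATP3 and ATP15, subunits of ATP synthase, fell by 1.44 and 1.25, and COX9, a cytochrome oxidase subunit, by 1.33 on the log2 scale (largest adjusted p = 0.000947). Of the respiratory chain and ATP synthase genes 8 of 36 measured members rose and 12 fell [5 without BY4741 replicate 1 or BY4741 replicate 2 to 8, and 8 to 15], and the median, log2 -0.18, changed sign to log2 0.05 with equal array medians, where 6 fell.

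Genes of the machinery that translates mitochondrial messages were mostly higher. Of the mitochondrial ribosomal proteins 52 of 69 measured members rose and 0 fell [40 to 60 and 0], at a median of log2 1.20. MRP1, a protein of the small subunit, gave 597 and 562 on the BY4741 arrays and 2805 and 3900.4 on the arrays labelled A880STM1K, a rise of log2 2.51 ± 0.26. MRPL32, of the large subunit, rose from 228 and 219.9 to 1733 and 2091, by log2 3.09 ± 0.22, and MRPL7, MRPL4 and MNP1, also of the large subunit, rose by log2 2.69 ± 0.25, log2 2.50 ± 0.25 and log2 2.31 ± 0.22 (largest adjusted p = 5.25e-05). Of the mitochondrial translation factors and activators 19 of 28 measured members rose and 1 fell [17 to 19 and 0 to 1], at a median of log2 1.57. MSF1, the mitochondrial phenylalanyl-tRNA synthetase, gave 61.2 and 65.4 on the BY4741 arrays and 1353 and 2169 on the arrays labelled A880STM1K, a rise of log2 4.76 ± 0.31 and the third largest of all. MST1, the threonyl-tRNA synthetase, rose from 69.5 and 88.2 to 627 and 1066, by log2 3.38 ± 0.38, and MEF1, an elongation factor, by log2 2.28 ± 0.28 (largest adjusted p = 0.000134). Of all tested probe sets 21.2% rose and 28.3% fell. Among genes of low oxygen the list was mixed, as 3 of 16 measured members rose and 1 fell [2 to 4 and 1 to 2]. CYC7, iso-2-cytochrome c, rose by log2 2.33 ± 0.23, HEM13, a heme synthesis enzyme, by log2 1.66 ± 0.24, and TIR2, a cell wall mannoprotein, fell by 1.45 on the log2 scale (largest adjusted p = 0.00515).

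Cytosolic ribosomal protein genes were also mostly higher, where 21.2% of all tested probe sets rose and 28.3% fell. In this list 99 of 127 measured members rose and 1 fell [61 without BY4741 replicate 1 or A880STM1K replicate 1 to 107, and 0 to 3], at a median of log2 1.12, and 26 of their probe sets are shared between near-identical gene copies. RPL13A, of the large subunit, gave 533 and 594 on the BY4741 arrays and 3934 and 2043 on the arrays labelled A880STM1K, a rise of log2 2.33 ± 0.33. RPL2B rose by log2 2.27 ± 0.38, RPL17B by log2 2.09 ± 0.28 and RPS1A, of the small subunit, by log2 1.76 ± 0.29 (largest adjusted p = 0.000788). Of the cytosolic translation factors 19 of 34 measured members rose and 2 fell [10 without BY4741 replicate 1 or BY4741 replicate 2 to 21, and 1 to 3]. RPG1, PRT1 and NIP1, subunits of initiation factor eIF3, rose by log2 1.84 ± 0.23, log2 1.81 ± 0.26 and log2 1.90 ± 0.30. HEF3, a paralog of elongation factor YEF3, did the reverse and fell from 6168 and 5826 to 509 and 588, by 3.45 on the log2 scale (largest adjusted p = 0.000571).

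Ribosome assembly genes separated the 2 arrays labelled A880STM1K from each other. The median of the ribosome biogenesis list was log2 0.94 above the mean of the BY4741 arrays on replicate 1 and log2 -0.53 on replicate 2. CBF5, which modifies ribosomal RNA, gave 3789 and 1370.0 on those arrays against 991 and 869 on BY4741, and NSR1, a nucleolar protein with an RGG domain, gave 2812 and 542 against 3015 and 2991. With both arrays 5 of 44 members rose and 4 fell, where 21.2% of all tested probe sets rose and 28.3% fell. Without replicate 2 of the arrays labelled A880STM1K 26 rose, and without replicate 1 18 fell, while with equal array medians 1 fell, so no direction can be given for this list. The RNA polymerase I and III subunits gave log2 0.074 and -0.82 on the same arrays, and 8 of 23 measured members fell and 2 rose [4 without BY4741 replicate 1 or BY4741 replicate 2 to 12, and 0 to 7 without A880STM1K replicate 2]. Those that fell included RPC19, shared by both enzymes, at log2 -2.41 ± 0.40, RPC37 at log2 -2.03 ± 0.29 and RPA14 at log2 -1.66 ± 0.27 (largest adjusted p = 0.000742).

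Amino acid synthesis genes were mostly higher on the arrays labelled A880STM1K, where 21.2% of all tested probe sets rose and 28.3% fell. Of the methionine and S-adenosylmethionine genes 13 of 18 measured members rose and 0 fell [9 to 15 and 0 to 2], at a median of log2 1.91. SAM2, S-adenosylmethionine synthetase, gave 628 and 1304 on the BY4741 arrays and 6708 and 8861 on the arrays labelled A880STM1K, a rise of log2 3.09 ± 0.56. SAH1, which clears S-adenosylhomocysteine, rose by log2 2.09 ± 0.36, SAM4, a homocysteine methyltransferase, by log2 2.70 ± 0.37 and MUP1, the methionine permease, by log2 2.53 ± 0.49 (largest adjusted p = 0.00197). Of the branched-chain amino acid genes 8 of 12 measured members rose and 1 fell [6 to 8 and 0 to 1]. The 8 include LEU2, given above as a marker gene. BAT1, the mitochondrial branched-chain aminotransferase, rose from 403 and 399 to 6165 and 4866, by log2 3.77 ± 0.36, and ILV3, dihydroxyacid dehydratase, from 793 and 691 to 5282 and 4118, by log2 2.66 ± 0.24. LEU1, of leucine synthesis, rose by log2 2.57 ± 0.34 and ILV2, acetolactate synthase, by log2 2.05 ± 0.26 (largest adjusted p = 0.000207). Among the other amino acid genes 27 of 41 measured members rose and 1 fell [23 to 28, and 1 to 5 without A880STM1K replicate 1], at a median of log2 1.22. SER3, of serine synthesis, rose from 735 and 1192 to 4941 and 6449, by log2 2.59 ± 0.31. ARO1 and ARO8, of aromatic amino acid synthesis, rose by log2 2.26 ± 0.29 and log2 2.41 ± 0.34, and HIS1, of histidine synthesis, by log2 3.49 ± 0.48. GDH3, a glutamate dehydrogenase that cells use on nonfermentable carbon, fell from 4881 and 5335 to 698 and 799.7, by 2.77 on the log2 scale (largest adjusted p = 0.000296).

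In one-carbon and glycine metabolism 5 of 10 measured members rose and 1 fell [3 to 7 and 1]. MTD1, a methylenetetrahydrofolate dehydrogenase, rose by log2 2.11 ± 0.27 and ADE3, the trifunctional folate enzyme, by log2 1.73 ± 0.24, while AGX1, which makes glycine from glyoxylate, fell by 1.60 on the log2 scale (largest adjusted p = 0.00141). Sulfate assimilation differed between the 2 arrays, with list medians of log2 -0.0022 on replicate 1 and 2.19 on replicate 2 of the arrays labelled A880STM1K. Here 3 of 16 measured members rose and 3 fell [1 to 11 without A880STM1K replicate 1, and 3 to 4]. Those that rose include MET17, given above as a marker gene. MET4 and MET31, transcription factors of the sulfur pathway, and MET30, the ubiquitin ligase subunit that restrains MET4, fell by 1.57, 2.0 and 2.18 on the log2 scale (largest adjusted p = 0.00127). In the arginine list 3 of 12 measured members rose and 1 fell [1 to 7 without A880STM1K replicate 2, and 1 to 2]. ARG4, argininosuccinate lyase, rose by log2 1.48 ± 0.27, and CAR2, of arginine breakdown, fell from 3229.6 and 3101 to 786 and 1127, by 1.75 on the log2 scale (largest adjusted p = 0.00137). The shares called were 60.0%, 37.5% and 33.3% in the one-carbon, sulfate and arginine lists. They stand beside 49.5% of all tested probe sets, of which 21.2% rose and 28.3% fell.

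Genes for scavenging nitrogen and for autophagy were mostly lower, where 28.3% of all tested probe sets fell and 21.2% rose. Of the nitrogen-repressed genes, which cells run when good nitrogen sources are short, 15 of 22 measured members fell and 1 rose [9 without BY4741 replicate 1 to 14, and 1], at a median of log2 -0.98. GAP1, the general amino acid permease, gave 3409 and 2193 on the BY4741 arrays and 203 and 134 on the arrays labelled A880STM1K. PUT4, the proline permease, gave 3988 and 3709 against 169 and 293. Neither array labelled A880STM1K came near a BY4741 array for these permeases, and the falls were log2 -4.05 ± 0.29 and log2 -4.11 ± 0.31. MEP1 and MEP2, ammonium transporters, fell by 3.06 and 2.96, and DAL80, a repressor of the same regulon, by 3.56 on the log2 scale (largest adjusted p = 0.000356). Of the autophagy genes 24 of 34 measured members fell and 1 rose [19 to 27 and 0 to 1], at a median of log2 -1.22. ATG33 and ATG32, which act in the removal of mitochondria, fell from 3395 and 3561 to 363 and 667 and from 1897 and 1675 to 384 and 428. Their changes were log2 -2.82 ± 0.28 and log2 -2.14 ± 0.23. ATG9, the membrane protein of the pathway, fell by 2.73, ATG39, a receptor for nuclear membrane, by 2.32 and ATG1, the kinase that starts autophagy, by 1.93 on the log2 scale (largest adjusted p = 0.000162).

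Ergosterol synthesis genes, which make the main membrane sterol of yeast, were higher at steps along the whole pathway. The share of all tested probe sets that rose was 21.2%, and 28.3% fell. In this list 21 of 25 measured members rose and 0 fell [18 to 21 and 0 to 1], at a median of log2 1.68. MVD1, a mevalonate enzyme early in the pathway, gave 243 and 198 on the BY4741 arrays and 2488 and 2984 on the arrays labelled A880STM1K. ERG25 and ERG26, which act on the sterol ring, rose from 789 and 763 to 6314 and 4237 and from 223 and 178 to 1909 and 3576. ERG5, the desaturase late in the pathway, gave 107 and 138 against 1992 and 2789. In all 4 genes both arrays labelled A880STM1K stood above both BY4741 arrays, and the rises were log2 3.64 ± 0.24, log2 2.74 ± 0.24, log2 3.71 ± 0.33 and log2 4.27 ± 0.33. ERG4, the reductase of the last step, rose by log2 2.77 ± 0.26 and ERG6, a sterol methyltransferase, by log2 3.11 ± 0.29 (largest adjusted p = 3.37e-05).

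**Figure D4:**
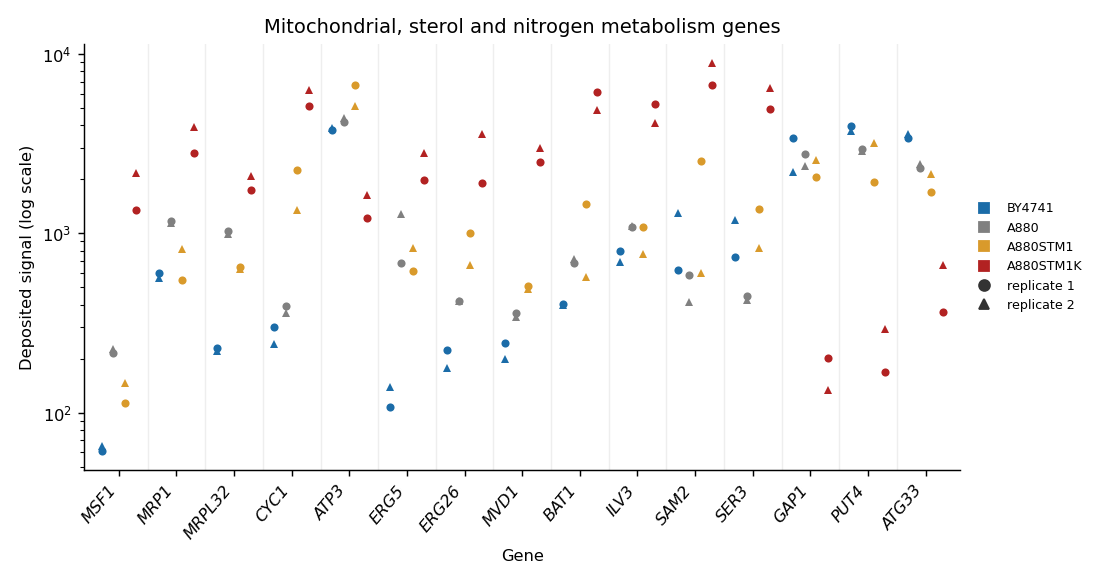
Deposited signal of 15 mitochondrial, sterol and nitrogen metabolism genes on each of the 8 arrays, on a log scale, with circles for replicate 1 and triangles for replicate 2. Except for ATP3, the genes from MSF1 to SER3 are higher on both arrays labelled A880STM1K than on both BY4741 arrays, and ATP3, GAP1, PUT4 and ATG33 are lower.

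Cell wall genes were mostly higher and metal genes mixed, where 21.2% of all tested probe sets rose and 28.3% fell. The counts of the copper genes below lie near these shares. Of the PIR and mannoprotein genes 10 of 18 measured members rose and 2 fell [7 to 10 and 0 to 1], at a median of log2 0.94. PIR3 and PIR1, wall proteins with internal repeats, rose from 320.2 and 260.2 to 3844 and 5490.3 and from 557 and 662 to 4834 and 4376. Their rises were log2 3.99 ± 0.25 and log2 2.92 ± 0.26, and CIS3, a related protein, rose by log2 2.70 ± 0.41 (largest adjusted p = 0.000476). Of the iron regulon, which serves iron uptake, 12 of 28 measured members fell and 3 rose [9 to 12 and 1 to 3], at a median of log2 -0.75. FTR1, the iron permease, gave 1119 and 789.9 on the BY4741 arrays and 246 and 126 on the arrays labelled A880STM1K, a change of log2 -2.42 ± 0.46. CCC2, a copper pump that loads the iron oxidase, fell by 2.79, SIT1, a siderophore transporter, by 2.25, and HMX1, heme oxygenase, rose by log2 2.43 ± 0.25 (largest adjusted p = 0.00163). Of the copper genes 3 of 10 measured members rose and 3 fell [2 to 3 and 3], among them CTR1, the copper importer, which rose by log2 2.47 ± 0.35, and CUP2, the activator of metallothionein, which fell by 1.64 (largest adjusted p = 0.00032).

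In the phosphate regulon 9 of 22 measured members fell and 3 rose [7 to 9, and 0 without BY4741 replicate 1 or BY4741 replicate 2 to 2]. Over all tested probe sets 28.3% fell and 21.2% rose. Under quantile normalization and equal array medians 6 members of the list rose, and the list median changed sign from log2 -0.20 to log2 0.029 with equal array medians. SPL2, which curbs low-affinity phosphate uptake, gave 862 and 692 on the BY4741 arrays and 96.5 and 64.7 on the arrays labelled A880STM1K, a fall of 3.29 on the log2 scale. PHO8, the vacuolar phosphatase, fell from 3847 and 3389.6 to 765 and 1026, by 2.03, PHM8, a phosphatase of starved cells, by 2.43 and VTC1, of polyphosphate synthesis, by 1.21 (largest adjusted p = 0.000582).

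Stress and protein quality genes showed no common direction. In the general stress list 4 of 23 measured members rose and 6 fell [3 to 4 and 5 to 8]. CTT1, the cytosolic catalase, rose from 983 and 1334 to 3665 and 5583, by log2 1.98 ± 0.33, whereas XBP1, a repressor made in stressed cells, fell from 2552 and 2286 to 196 and 318, by 3.28, and MSN2, an activator of the response, by 2.06 on the log2 scale (largest adjusted p = 0.0008). In the oxidative stress list 7 of 28 measured members rose and 7 fell [4 without BY4741 replicate 2 to 8, and 2 without BY4741 replicate 2 to 9]. OYE2, an NADPH oxidoreductase, rose by log2 2.08 ± 0.26, GSH1 and GSH2, which make glutathione, by log2 1.57 ± 0.32 and log2 1.44 ± 0.30, and TRX3, the mitochondrial thioredoxin, fell by 1.45 (largest adjusted p = 0.00266). YHB1, which detoxifies nitric oxide and belongs to no list, rose from 502 and 401 to 7391 and 7084, by log2 4.01 ± 0.34 (adjusted p = 1.85e-05). The shares of the stress and oxidative stress lists lie near those of all tested probe sets, 21.2% higher and 28.3% lower. In the trehalose and glycogen list 7 of 21 measured members rose and 5 fell [5 to 9 and 4 to 5]. ATH1, the acid trehalase, and GLG2, which primes glycogen, fell by 3.07 and 2.75, and PGM1 and UGP1, which make UDP-glucose, rose by log2 2.27 ± 0.34 and log2 0.99 ± 0.20 (largest adjusted p = 0.00244).

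Among the cytosolic chaperones 6 of 25 measured members rose and 2 fell [2 without BY4741 replicate 2 to 6, and 1 to 4]. SSA3, a heat shock protein of the HSP70 family that is active after glucose runs out, gave 6569 and 6617 on the BY4741 arrays and 452 and 545 on the arrays labelled A880STM1K, a fall of 3.73 on the log2 scale. SSA2, a member of the same family made during growth, rose from 739.8 and 462 to 5435 and 2845, by log2 2.75 ± 0.35 (largest adjusted p = 0.000172). Of the proteasome genes 6 of 34 measured members rose and 6 fell [1 without BY4741 replicate 1 to 8, and 0 without BY4741 replicate 2 to 8], and 2 fell with equal array medians, with RPN7, of the lid, at log2 1.00 ± 0.20 (adjusted p = 0.00243). Of the endoplasmic reticulum folding genes 3 of 15 measured members rose and 3 fell [0 without BY4741 replicate 1 or BY4741 replicate 2 to 4, and 1 to 4], with MPD2, a disulfide isomerase, at log2 -1.65 ± 0.35 (adjusted p = 0.00302). Among the core histones 1 of 7 measured members rose and 0 fell [0 to 1 and 0], although with quantile normalization 4 fell, and among the cyclins 2 of 16 measured members rose and 1 fell [1 to 3 and 1 to 3]. CLN3, the G1 cyclin that links growth to cell cycle entry, rose from 176 and 109 to 2106 and 1186, by log2 3.51 ± 0.36 (adjusted p = 4.88e-05). In each list of this paragraph the share called was below the 49.5% of all tested probe sets, of which 21.2% rose and 28.3% fell.

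Mating genes were read as markers of cell type, since the common laboratory strain named BY4741 is a haploid of the a mating type. Their counts stand beside the 21.2% of all tested probe sets that rose and the 28.3% that fell. Of the haploid-specific genes, which a and alpha cells express and a/alpha diploids repress, 8 of 10 measured members fell and 0 rose [6 to 9 and 0], at a median of log2 -1.57. STE18, the gamma subunit of the pheromone G protein, gave 1017 and 1005 on the BY4741 arrays and 31.1 and 29.3 on the arrays labelled A880STM1K. FUS3, the kinase of the pheromone pathway, gave 528 and 535 against 38.9 and 38.8. Both were low on each array labelled A880STM1K, with falls of log2 -5.06 ± 0.30 and log2 -3.77 ± 0.34. STE5, the scaffold of that pathway, fell by 2.0, RME1, a repressor of meiosis, by 1.74, NEJ1, of haploid end joining, by 2.72 and GPA1, the alpha subunit of the G protein, by 1.40 on the log2 scale (largest adjusted p = 0.00325). The summed signal of the 10 haploid-specific genes was 4933 and 5161 on the BY4741 arrays and 1531 and 1157 on the arrays labelled A880STM1K.

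Of the a-cell-specific genes 5 of 7 measured members fell and 0 rose [3 to 5 and 0]. MFA1 and MFA2, which encode the a-factor pheromone, fell from 1047 and 1225 to 73.7 and 143 and from 944 and 768 to 146 and 107. Their changes were log2 -3.46 ± 0.37 and log2 -2.77 ± 0.31, and ASG7, a regulator in a cells, fell by 1.60 (largest adjusted p = 0.00225). Their summed signal was 3069.6 and 3073 on the BY4741 arrays and 940.2 and 842 on the arrays labelled A880STM1K. Of the alpha-cell-specific genes 2 of 4 measured members rose and 0 fell [0 to 2 and 0], and the 4 summed to 721 and 642 against 856 and 911. Of these 4, MF(ALPHA)1 and MF(ALPHA)2, the alpha-factor genes, gave 100.2 and 156 and 132 and 182 on the arrays labelled A880STM1K, changes of log2 1.95 ± 0.53 and log2 1.30 ± 0.39 (largest adjusted p = 0.0177) of which neither was called without BY4741 replicate 2 or A880STM1K replicate 2, nor MF(ALPHA)2 without BY4741 replicate 1. No haploid-specific, a-cell-specific, alpha-cell-specific or meiosis gene measured was below background on both arrays labelled A880STM1K. The same held for every other strain, BY4741 included. On the arrays labelled A880STM1K 99.9% and 99.8% of all named probe sets lay above background, so detection cannot separate cell types here. In the meiosis list 3 of 19 measured members rose and 2 fell [2 to 3 and 0 to 2], with summed signals of 3126 and 3071 on the BY4741 arrays and 3396 and 3109 on the arrays labelled A880STM1K. RED1, of the meiotic chromosome axis, and IME4, which methylates messenger RNA in meiosis, rose by log2 2.19 ± 0.30 and log2 2.54 ± 0.39 (largest adjusted p = 0.000496). The meiosis list had 26.3% of its members called, and the pheromone response list, given next, 12.5%. Both lie below the 49.5% called of all tested probe sets, 21.2% higher and 28.3% lower. In the pheromone response list 1 of 16 measured members rose and 1 fell [0 to 2 and 1 to 2], while 4 rose under either other scaling, with PRM4 falling by 2.90 on the log2 scale (adjusted p = 4.8e-05). What part the ploidy or mating type of the cultures has in these values, or in other genes, was not tested.

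Among the genes of the complex that contains Pop2, CCR4 rose, while POP2, deleted by label, was lower. Of the CCR4-NOT subunits 5 of 9 measured members fell and 1 rose [3 to 5 and 1], at a median of log2 -0.71, where 28.3% of all tested probe sets fell and 21.2% rose. The 5 include POP2 itself, whose fall the label calls for. CCR4, the other nuclease, gave 640.1 and 633 on the BY4741 arrays and 1751 and 1746 on the arrays labelled A880STM1K, a rise of log2 1.46 ± 0.21. CDC39, the scaffold subunit, fell by 1.35 and CAF130 by 1.65 on the log2 scale (largest adjusted p = 0.00298). CCR4 was also above BY4741 on the other strains, with 2062 and 2031 on A880 and 961 and 1153 on A880STM1. It lies on chromosome I, whose medians are given at the end, and whether the 2 are linked was not tested. Of other decay factors 4 of 21 measured members rose and 5 fell [2 to 4, and 2 without BY4741 replicate 2 to 5], near those shares. EDC3 and PAT1, which activate decapping, rose by log2 1.27 ± 0.24 and log2 0.96 ± 0.21, and PAN2, of the other deadenylase, fell by 1.84 (largest adjusted p = 0.00395). Among the PUF proteins, which bind messages and can recruit CCR4-NOT, 2 of 6 measured members rose and 2 fell [2 to 3 and 1 to 3]. PUF3, which binds messages for mitochondrial proteins, rose from 172 and 111 to 615 and 788, by log2 2.33 ± 0.34, and MPT5 from 254 and 230.0 to 1437 and 954, by log2 2.28 ± 0.29, while PUF2 fell by 1.62 (largest adjusted p = 0.00409). In the list of STM1, RGG proteins and arginine methyltransferases 3 of 13 measured members rose and 2 fell [1 to 3, and 1 to 5 without A880STM1K replicate 1]. The 3 include STM1, the gene that was transformed by label. HMT1, the main arginine methyltransferase of yeast, gave 1789.7 and 1622 on the BY4741 arrays and 775 and 231 on the arrays labelled A880STM1K, a fall of 2.01 on the log2 scale (adjusted p = 0.00524).

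Genes near chromosome ends were few and mixed. In each list below the share called was under the 49.5% of all tested probe sets, of which 21.2% rose and 28.3% fell. In the COS family, a repeated family next to telomeres whose copies are alike and so uncertain, 3 of 9 measured members rose and 1 fell [2 to 3 and 1 to 2]. COS12 rose from 58.9 and 40.5 to 284 and 274, by log2 2.51 ± 0.35, and COS9 fell by 1.89 (largest adjusted p = 0.00128). Of the DUP240 family 1 of 5 measured members rose and 1 fell [0 to 2 and 0 to 1], and of the genes at the right end of chromosome III 2 of 6 measured members fell and 0 rose [0 to 3 and 0]. YCR101C there gave 219 and 181 on the BY4741 arrays and 68.3 and 50.8 on the arrays labelled A880STM1K, a change of log2 -1.76 ± 0.46 (adjusted p = 0.00898) that was not called without BY4741 replicate 1, while the A880 arrays gave 2.76 and 6.09. At the left end of chromosome X 1 of 6 measured members rose and 0 fell [1 to 2 and 0], with YJL213W rising from 172 and 132 to 1824 and 1038, by log2 3.19 ± 0.31 (adjusted p = 3.92e-05).

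Other genes among the 12 largest falls were SPS100, a spore wall protein, from 4645 and 5391 to 87.4 and 95.7, SHH3, a protein similar to a succinate dehydrogenase subunit, from 3176 and 4133 to 109 and 182, and YKL107W and YGR067C, which have no standard name. Their changes were log2 -5.77 ± 0.23, log2 -4.68 ± 0.30, log2 -4.78 ± 0.31 and log2 -4.74 ± 0.26 (largest adjusted p = 5.05e-06). Among the 12 largest rises RSB1, which exports sphingoid bases, went from 93.4 and 87.0 to 1464 and 1387, by log2 3.98 ± 0.33, and PAN6, of pantothenate synthesis, from 51.4 and 76.8 to 1218 and 704, by log2 3.88 ± 0.53 (largest adjusted p = 0.000261).

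**Figure D5:**
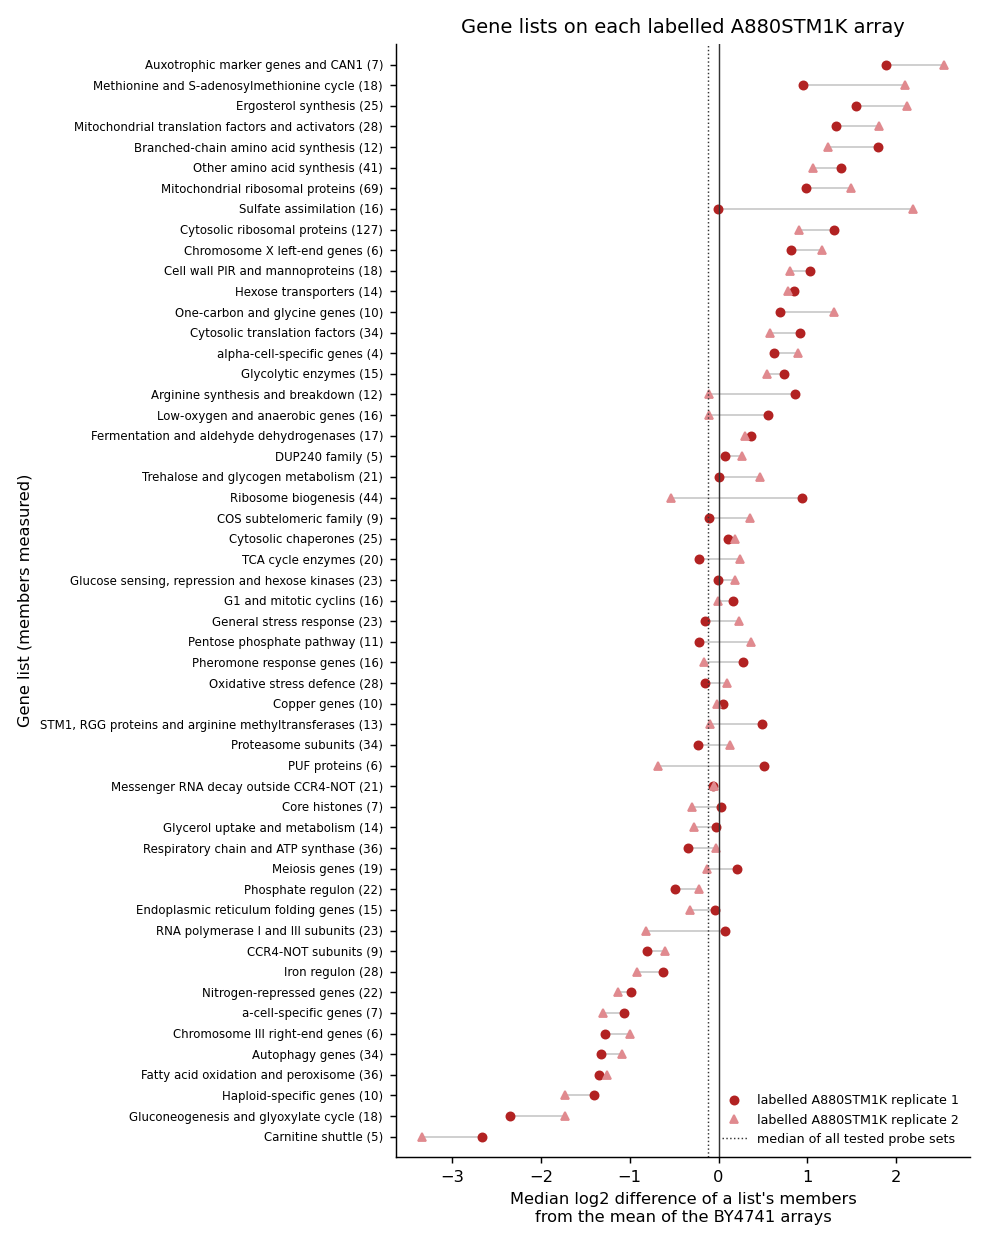
Median log2 difference of each of 53 gene lists from the mean of the BY4741 arrays, for the array labelled A880STM1K replicate 1 (circles) and replicate 2 (triangles), with the number of measured members after each name and a dotted line at the median of all tested probe sets. The carnitine shuttle list lies lowest on both arrays, with the gluconeogenesis and haploid-specific lists next to it, and ribosome biogenesis and sulfate assimilation differ most between the arrays.

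The change from BY4741 was compared between the arrays labelled A880STM1K and those labelled A880STM1. The test was the difference between those 2 groups, since the BY4741 term cancels. A call is a difference in signed change and does not say which strain lies farther from BY4741. The limma test called 1925 of 5496 probe sets, or 35.0%, with 984 (17.9%) higher and 941 (17.1%) lower on the arrays labelled A880STM1K. The count was 1179 when the spread was taken from only these 4 arrays and 794 when arrays were weighted by group, which was added after the data were seen. POP2 and STM1 were not among the calls, and the doubt about the POP2 label touches both groups. The change from BY4741 differed for gluconeogenesis and glyoxylate cycle genes, of which 13 of 18 were lower than on the arrays labelled A880STM1 and 0 higher. SFC1 gave 2241 and 3702 on the arrays labelled A880STM1 and FBP1 1882 and 3837, and both were lower on the arrays labelled A880STM1K, by log2 -5.57 ± 0.31 and log2 -4.84 ± 0.34 (largest adjusted p = 1.65e-05). All 5 carnitine shuttle genes, 12 of 22 nitrogen-repressed genes and 21 of 34 autophagy genes were lower as well.

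Mitochondrial translation and the respiratory chain went in opposite directions in this comparison. Of the mitochondrial ribosomal proteins 54 of 69 were higher than on the arrays labelled A880STM1 and 0 lower, among them MRP1 (546 and 814 on the arrays labelled A880STM1) by log2 2.31 ± 0.26. MSF1, at 113 and 145 on the arrays labelled A880STM1, was higher by log2 3.74 ± 0.31 (largest adjusted p = 0.000161). Of the respiratory chain and ATP synthase genes 20 of 36 were lower and 2 higher, with ATP3 (6689 and 5123 on the arrays labelled A880STM1) at log2 -2.05 ± 0.23 and CYC1 (2254 and 1353) at log2 1.70 ± 0.28 (largest adjusted p = 0.00119). Of the ergosterol genes 16 of 25 were higher and 0 lower. MIG2 and CLN3 were near BY4741 on the arrays labelled A880STM1, at 56.7 and 44.5 and 159 and 119, and were higher by log2 3.91 ± 0.39 and log2 3.52 ± 0.36 (largest adjusted p = 9.28e-05).

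For some other genes no difference between the 2 transformed strains was called. STE18 gave 24.0 and 17.7 on the arrays labelled A880STM1 and FUS3 18.0 and 31.5, and the differences from the arrays labelled A880STM1K were log2 0.55 ± 0.30 and log2 0.71 ± 0.34 (largest adjusted p = 0.177). Other mating genes were called higher on the arrays labelled A880STM1K, as were 17.9% of all tested probe sets. They were 2 of 10 haploid-specific, 2 of 7 a-cell-specific and 3 of 4 alpha-cell-specific genes, and 0 were called lower. YHB1 (6975 and 2902 on the arrays labelled A880STM1) and LEU2 (7704 and 3412) differed by log2 0.69 ± 0.34 and log2 0.71 ± 0.33, and SSA2 (4404 and 2698) by log2 0.19 ± 0.35 (largest adjusted p = 0.702). These p-values do not show that the strains are alike.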

How the data were processed

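The deposited signal intensities came from MAS5, per the submitters' processing notes, and its version is not given in the sources used here. Each array's mean without the top and bottom 2% of probe sets was 500.15 to 500.26. Of 10928 probe sets, 5498 stand for 1 S. cerevisiae gene in the platform annotation, and the R64 gene table gave 12 of them a newer symbol. Background was the 90th percentile of an array's probe sets for other yeast species (5.15 to 8.40), and 99.5% to 99.9% of the named probe sets lay above it. Probe sets above it on at least 2 of 8 arrays were tested.

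Log2 signals were fitted with group means in limma 3.58.1 (R 4.3.3) over all 8 arrays, with an intensity trend in eBayes, 4 residual degrees of freedom and Benjamini-Hochberg adjustment, and the procedure was tested on simulated data. Every adjusted p in the text is from this limma fit. A bound ("at least") divides the geometric mean of the bright group by that of the dim group, each dim array at its background or its own signal if higher. The genes named are POP2, STM1, the marker genes, the 12 largest changes each way, probe sets detected in only 1 of the groups and up to 6 members of each list by smallest p. The members and lists were chosen with earlier results of these data known. A list uses 1 probe set per gene, that with the highest mean. Other scalings, filters, a pseudocount of 16, fewer arrays and a replicate block were tried. A promoter motif search was planned and was not run, since no promoter sequences were used here.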

Additional observations from a re-analysis of the deposited data

Results flagged for a closer look

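SPL2, of the phosphate regulon, changed in opposite directions from BY4741 in the 2 transformed strains. It gave 862 and 692 on the BY4741 arrays, 2075 and 1917 on the arrays labelled A880STM1 and 96.5 and 64.7 on the arrays labelled A880STM1K. The test of the difference between the strains gave log2 -4.66 ± 0.27 (adjusted p = 4.83e-06, limma over all 8 arrays), with both arrays labelled A880STM1K below, and both arrays labelled A880STM1 above, the BY4741 arrays. No other gene named by the rule was called in opposite directions from BY4741 in the 2 strains with a called difference between them.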

How the results depend on the processing

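The number of probe sets called between the arrays labelled A880STM1K and BY4741 was 2720, ranged from 1676 to 2701 with 1 of the 4 arrays left out, and was lowest without a BY4741 array. It was 3089 with quantile normalization, 2793 with equal array medians, 2553 with only the 4 arrays in the fit and 2656 when arrays were weighted by group. The other filters, the pseudocount, the floor and the fit with no intensity trend gave 2675 to 2743, and an adjusted p below 0.01 gave 1824. The median absolute log2 difference was 0.754, fell to 0.726 with quantile normalization and ranged from 0.749 to 0.793 with 1 array left out. Against A880STM1 the count of 1925 was 1179 with only the 4 arrays, 794 with weighted arrays, 1687 to 2136 with 1 of the 4 arrays compared left out, and 1547 and 1542 without BY4741 replicate 1 and 2, which enter only the spread. The causes were not tested. With the replicate number as a block the counts were 2843 and 2108, and the replicate block added the call of LYS2 and changed no other named call. The deviations of same-numbered arrays correlated at 0.29 between BY4741 and A880STM1K, at 0.25 between A880STM1 and A880STM1K, and at 0.037 to 0.22 in the other pairs of groups, above 0.1 in 5 of the 6. The labels do not say that a number marks a shared culture or day, and with 2 numbers a shared replicate effect could not be settled, so the fit has no block. Of 285 named results 215 kept their direction and their call in every alternative, and 70 did not, most of them without a BY4741 array (41 without replicate 1 and 54 without replicate 2). No named result reversed. The sign of the list median changed for 24 of the 53 lists. With 2 arrays a group no array could be judged apart from its partner, and signals near background, such as those of URA3 and CAN1 on BY4741, have only a bound. The planned search of promoters for motifs was not run.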

Other observations

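Including SPL2, 20 probe sets were called in opposite directions from BY4741 on the arrays labelled A880STM1K and on the arrays labelled A880STM1, with a called difference between the strains. The following were picked after their values were seen. SRX1, sulfiredoxin, gave 565 and 485 on the BY4741 arrays, 2283 and 890.0 on the arrays labelled A880STM1 and 56.1 and 54.8 on the arrays labelled A880STM1K. DIF1, which moves ribonucleotide reductase into the nucleus, gave 409 and 301, then 2214 and 1854, then 178 and 139 in the same order. Their differences between the strains were log2 -4.68 ± 0.38 and -3.69 ± 0.27 (adjusted p = 3.64e-05 and 1.96e-05, limma).

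ATP17, of ATP synthase, gave 2852 and 2962 on BY4741, 6999 and 4231 on A880STM1 and 977 and 1195 on the arrays labelled A880STM1K. QCR6, of the cytochrome bc1 complex, and ATP14, ATP18 and ATP20, of ATP synthase, were likewise lower than BY4741 on the arrays labelled A880STM1K and higher on the arrays labelled A880STM1, with differences between the strains of log2 -2.56, -1.94, -2.02 and -1.97. GLT1, glutamate synthase, went the other way, from 1839 and 1918 on BY4741 to 3375 and 2443 on the arrays labelled A880STM1K, against 968 and 995 on A880STM1.

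By chromosome, the median change of the arrays labelled A880STM1K from BY4741 was highest on chromosome I, at log2 0.30 over 91 probe sets, where 23 (25.3%) rose and 16 fell, against 21.2% and 28.3% of all tested probe sets. The medians on the single arrays were log2 0.35 and 0.25, and on the arrays labelled A880STM1 log2 0.14 and 0.30. On the A880 arrays the chromosome I median was log2 0.62 and 0.64. The next highest for the arrays labelled A880STM1K was chromosome VI, at log2 0.081 over 119 probe sets.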
